A study of Macaca mulatta with 2 samples.

Results

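Oligodendrocytes arise from precursor cells that divide under the growth factor PDGF, pass through a committed and newly formed state, and then wrap axons in myelin, the lipid-rich sheath that speeds conduction. In the primate prefrontal cortex this process is under way after birth. The 38 genes described here cover that path, with 8 genes of precursors, 6 of committed or newly formed cells and 24 of mature, myelinating cells. They were picked by gene name, with earlier results of these data known. All 38 were among the 33618 genes of the count table.

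The samples were prefrontal cortex of 1 control and 1 sevoflurane-exposed rhesus macaque (Macaca mulatta), labelled PFC CON 1 and PFC SEV 1, both aged 28 postnatal days by the labels. Sevoflurane, an inhaled anesthetic, was given at about 2.5 to 3% for 4 h on approximately days 7, 14 and 28 by the labels. The study's results text gives the same days, while its methods place the later exposures on other days. The methods place the sampling right after the last exposure. What the control animal received is not given in the sources used here. Each group held 3 animals by the study's methods and the others were not analysed here, so there were no replicates, no statistical test could be run, and every difference is between 2 animals and not between the conditions.

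RNA sequencing gave 16960880 gene reads for the control animal (library CON) and 9839105 for the exposed one (library SEV). Levels are CPM, read counts scaled for depth and composition by edgeR's TMM method, and the difference is the log2 ratio of SEV over CON with a prior count of 2. Each ratio has an exact 95% Clopper-Pearson interval, which covers counting error only. A gene that reached 1 CPM in CON or SEV was tested against a 2-fold rule, meaning at least 2-fold apart with an interval that leaves out equal expression. All 7 Y-linked genes examined had reads in SEV (4308 in sum, against 3 in CON), and the methods list a male in the exposed group only, so sex, animal and exposure cannot be told apart.

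The member genes of the lineage were lower in SEV almost throughout, which did not hold for the further precursor genes described below. Of the 38 members, 36 were tested, each with at least 1 CPM in both libraries. ST18 was below 1 CPM in both, and TF was listed at 0. Of the 36, 13 were at least 2-fold lower by the rule, or 36.1%, beside 5.47% of the 18050 genes tested. None of the 36 was at least 2-fold higher, beside 7.56% of all genes. The interval lay wholly below equal expression for 27 of the 36 (28.1% of all genes) and wholly above it for SOX8 alone (28.4% of all genes). Such intervals narrow with more reads, so this count depends on level as well. Among markers of other cell types, the interval lay below for 87.5% of 8 astrocyte, 80% of 10 neuron and 14.3% of 7 microglia genes. The log2 ratio was below 0 for 35 of the 36, against 50.3% of all genes, whose median was -0.005 with quartiles at -0.34 and 0.37. Because the members were chosen with earlier results of these data known, their shares describe them and test nothing. Summed over the members, the level was 3311 CPM in CON and 1962 CPM in SEV. In whole tissue, fewer cells of a type and less RNA per cell cannot be told apart.

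**Figure D1:**
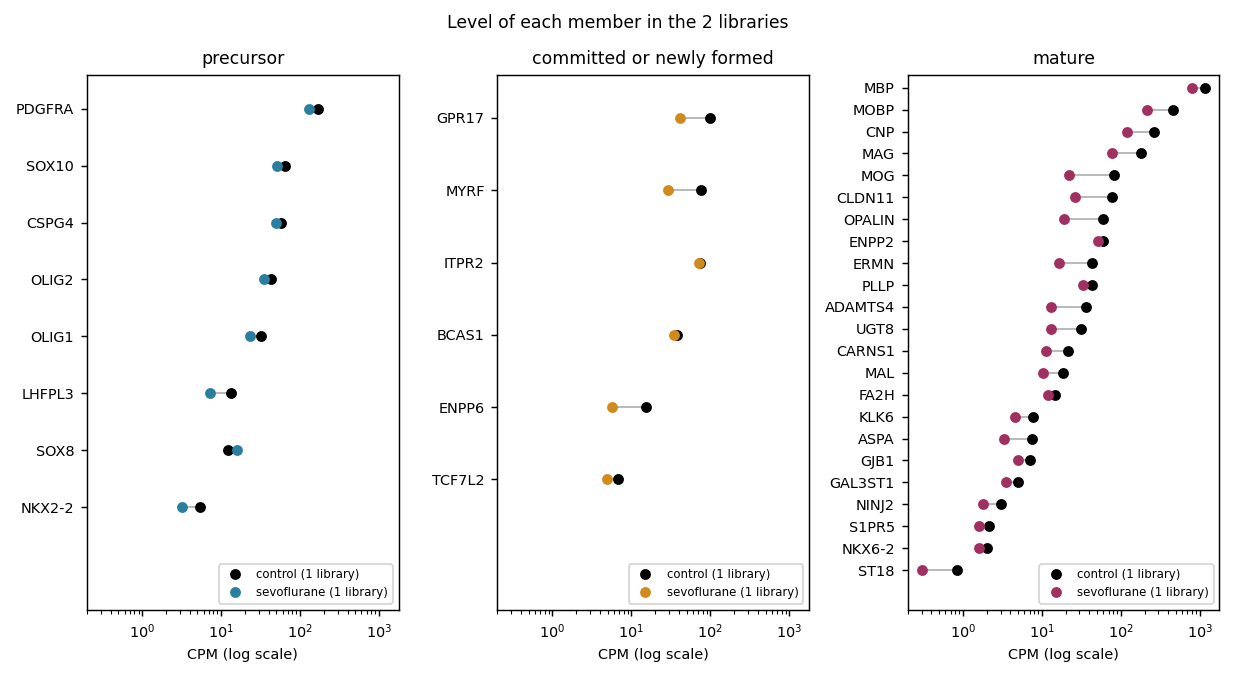
Level of each member with reads, in CPM on a log axis, in CON (black) and SEV (coloured), by stage. The sevoflurane point lies to the left in every row except SOX8, and the gaps are widest among mature genes such as MOG, OPALIN and CLDN11. CPM is not divided by gene length, so levels compare along a row and not between rows.

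The stages differed in how far their genes lay apart. The median log2 ratio was -0.36 over the 8 precursor genes, -0.88 over the 6 committed or newly formed genes and -0.86 over the 22 tested mature genes. By the 2-fold rule, 0 of 8 precursor, 3 of 6 committed and 10 of 22 mature genes were lower, beside 5.47% of all genes tested. With 8 genes, 0 does not stand apart from that share. The spread among genes of a stage was wide, with SDs of 0.38, 0.64 and 0.50 on the log2 scale. The mature range, from -1.90 to -0.20, overlapped the precursor range, from -0.86 to 0.39. The committed stage held 3 genes between -1.39 and -1.29 and 3 between -0.46 and -0.03, so its median lies in a gap between them.

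**Figure D2:**
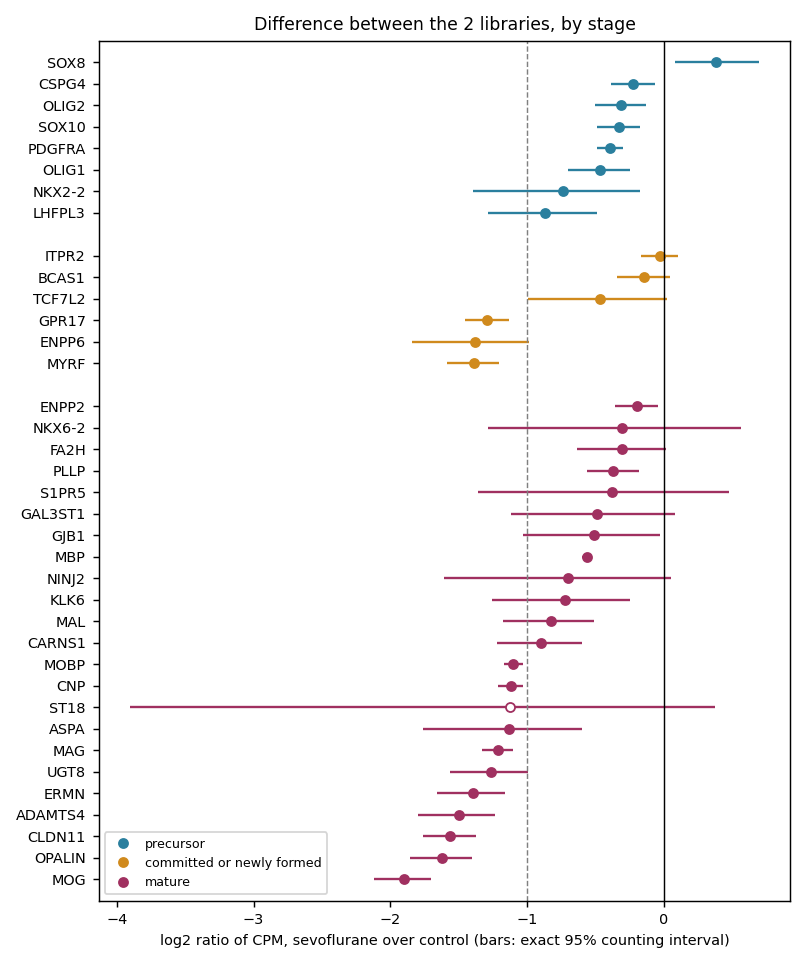
Log2 ratio of CPM, sevoflurane over control, for each member with reads, with its exact 95% counting interval as a bar. The solid line marks equal expression and the dashed line 2-fold lower. MOG is lowest at -1.90, SOX8 is the only point right of 0, and the open circle is ST18, which was below the level for testing.

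Precursor genes began with the receptor PDGFRA, through which PDGF keeps precursors dividing. It had 2876 reads in CON and 1292 in SEV, or 171 and 130 CPM, and its log2 ratio was -0.40 (95% interval -0.49 to -0.30). CSPG4, which encodes the NG2 proteoglycan on the precursor surface, was at 57.5 and 49.2 CPM with a ratio of -0.22. Both lay below equal expression by less than 2-fold. Fibroblasts also use PDGFRA and pericytes also use CSPG4. Without this pair the precursor median was -0.40, an alternative chosen after the values were seen. LHFPL3, a membrane protein gene enriched in precursors, had the lowest ratio of the stage, at 13.3 and 7.25 CPM (-0.86, interval -1.28 to -0.49).

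The transcription factors that set lineage identity stayed close to one another. OLIG2, which specifies the lineage, was at 43.1 and 34.7 CPM with a log2 ratio of -0.31. OLIG1, its neighbour and relative, was at 32.2 and 23.3 CPM (-0.47). SOX10, which is needed in precursors and for myelin gene expression alike, was at 63.6 and 50.7 CPM (-0.33). These ratios had overlapping intervals, and OLIG1 reads per OLIG2 read were 0.748 in CON and 0.67 in SEV, a difference whose interval included 0 (-0.46 to 0.14, log2). NKX2-2, a homeodomain factor that promotes differentiation, rested on few reads, 92 and 32, and had a ratio of -0.74 (-1.39 to -0.17).

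SOX8, a close relative of SOX10, went the other way. It had 204 control and 158 sevoflurane reads from a library of smaller depth, or 12.1 and 15.9 CPM, and a log2 ratio of 0.39 (0.08 to 0.70). There were 0.191 SOX8 reads per SOX10 read in CON and 0.314 in SEV, a 1.65-fold higher value with a log2 interval of 0.37 to 1.06. Such ratios of 2 genes within a library need no scaling between libraries. The gene pairs given here and below were chosen with the values known.

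Among committed and newly formed genes, 3 were at least 2-fold lower. GPR17, a receptor that marks the step between precursor and oligodendrocyte, had 1686 and 407 reads, or 100 and 41 CPM, and was 2.45-fold lower (log2 ratio -1.29, -1.45 to -1.13). ENPP6, a choline phosphodiesterase of newly differentiating cells, was at 15.2 and 5.74 CPM (-1.38, -1.84 to -0.98). MYRF, the transcription factor that switches on myelin genes, was at 75.5 and 28.7 CPM (-1.39, -1.58 to -1.21). The 3 intervals overlapped one another. They lay below those of 6 of the 8 precursor genes, the exceptions being LHFPL3 and NKX2-2, whose wider intervals overlapped them.

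The other 3 genes of this stage had intervals that included equal expression. BCAS1, a protein of early myelinating cells, was at 37.8 and 34.1 CPM (-0.15, -0.34 to 0.05). ITPR2, a calcium channel of the endoplasmic reticulum, was at 74 and 72.5 CPM (-0.03, -0.16 to 0.10). TCF7L2, a Wnt pathway transcription factor, had 113 and 48 reads (-0.46, -0.995 to 0.02). Astrocytes use ITPR2 as well. The astrocyte markers described below had a median of -0.48, and their part in these values was not tested. GPR17 held the most reads of the stage in CON (32.4% of them) and ITPR2 in SEV (38.8%).

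Ratios within a library placed the split between these genes against the precursor level. For each PDGFRA read there were 0.586 GPR17 reads in CON and 0.315 in SEV, 1.86-fold fewer. ENPP6 reads per PDGFRA read were 2.01-fold fewer, with a log2 interval of -1.46 to -0.58. MYRF reads per SOX10 read were 1.19 and 0.567, 2.09-fold fewer. BCAS1 reads per PDGFRA read were instead slightly more, at 0.221 and 0.262 (log2 difference 0.25, 0.03 to 0.46).

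In mature cells, the proteins of the sheath membrane differed among themselves. MBP, the basic protein that holds the cytoplasmic faces of myelin together, had 19743 and 7910 reads, or 1175 and 796.5 CPM, and a log2 ratio of -0.56 (-0.60 to -0.52). MOBP, another basic protein of compact myelin, was at 460 and 214 CPM and 2.14-fold lower (-1.10). CLDN11, which forms the tight junctions of myelin, was at 77.5 and 26.2 CPM and 2.96-fold lower (-1.56, -1.76 to -1.37). The membrane-trafficking proteins MAL and PLLP were at 18.3 and 10.3 CPM (-0.83) and at 43.4 and 33.5 CPM (-0.37). All 5 intervals lay below equal expression, and MOBP and CLDN11 met the 2-fold rule.

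Proteins on the myelin surface included the lowest ratio of all members. MOG, a glycoprotein on the outermost sheath, had 1396 control and 220 sevoflurane reads, or 83.1 and 22.1 CPM. It was 3.75-fold lower (log2 ratio -1.90, -2.12 to -1.70) and ranked 255 from the lowest among the 18050 genes tested. OPALIN, a paranodal and inner loop protein, was at 59.4 and 19.2 CPM (-1.62, -1.86 to -1.40). MAG, an adhesion molecule facing the axon, was at 182 and 78.3 CPM (-1.21, -1.33 to -1.10). These 3 met the 2-fold rule. NINJ2, an adhesion protein, had 51 and 18 reads and an interval that reached 0.06 (ratio -0.70).

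Among enzymes of myelin lipids along one route, UGT8 lay apart from FA2H, while the GAL3ST1 interval overlapped both. UGT8 makes galactosylceramide, FA2H supplies its hydroxylated fatty acid and GAL3ST1 adds the sulfate that gives sulfatide. UGT8 was at 31.1 and 12.9 CPM and met the rule (-1.26, -1.56 to -0.99). FA2H was at 14.8 and 11.98 CPM (-0.30, -0.63 to 0.01) and GAL3ST1 at 5 and 3.52 CPM (-0.49, -1.12 to 0.08), and both intervals included equal expression. UGT8 reads per FA2H read were 2.1 in CON and 1.08 in SEV (log2 difference -0.96, -1.40 to -0.53). ASPA, which cleaves N-acetylaspartate and so frees acetate, rested on 125 and 33 reads and met the rule (-1.13, -1.76 to -0.60). CARNS1, the carnosine synthase, was at 21.3 and 11.4 CPM (-0.90), short of 2-fold.

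Proteins tied to the cytoskeleton were both past 2-fold. CNP, the cyclic nucleotide phosphodiesterase of non-compact myelin, was at 263 and 121 CPM (-1.12, -1.21 to -1.03). ERMN, an actin-binding protein of late oligodendrocytes, was at 43.5 and 16.4 CPM (-1.40, -1.66 to -1.16).

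Secreted proteins covered nearly the whole mature range. ADAMTS4, a matrix protease of oligodendrocytes, was at 36.7 and 12.9 CPM and 2.84-fold lower (-1.50, -1.79 to -1.23). KLK6, a serine protease, had 130 and 46 reads (-0.72, -1.26 to -0.25). ENPP2, which makes lysophosphatidic acid, was at 59.1 and 51.6 CPM and had the highest mature ratio (-0.20, -0.35 to -0.04). Choroid plexus also uses ENPP2, and its marker TTR had 2 reads in CON and 31 in SEV. Its part in the ENPP2 value was not tested.

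The row for TF, which encodes the iron carrier transferrin, was listed at 0 in both libraries. The gap junction gene GJB1, which is X-linked, had 119 and 49 reads (-0.51, -1.03 to -0.03). S1PR5, a sphingosine-1-phosphate receptor, had 36 and 16 reads, and NKX6-2, a homeodomain factor of mature cells, 34 and 16, with ratios of -0.38 (-1.36 to 0.47) and -0.30 (-1.29 to 0.57). ST18, a zinc finger factor, had 14 and 3 reads, 2.76-fold apart with a log2 interval from -3.90 to 0.38. For these last 3 genes a difference was not detectable at this depth.

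Set against MBP within each library, the other 21 tested mature genes went different ways. Reads per MBP read were fewer in SEV for 11 of them, with an interval wholly below 0, more for ENPP2 alone, and not separable from equal for 9. MOBP reads per MBP read were 0.391 in CON and 0.269 in SEV. CNP reads per MBP read were 0.224 and 0.152, and MAG reads per MBP read 0.155 and 0.0984. MOG stood farthest apart, with 0.0707 and 0.0278 reads per MBP read, 2.54-fold fewer (log2 difference -1.35, -1.56 to -1.14). ENPP2 reads per MBP read were 0.0503 and 0.0647 (0.36, 0.20 to 0.52). PLLP was at 0.0369 and 0.0421 reads per MBP read (0.19, -0.006 to 0.38) and FA2H at 0.0126 and 0.015 (0.25, -0.08 to 0.58), and both intervals included 0. Transcripts of the MBP locus are also made in other cells as golli forms, and the counts per gene do not separate them. Across the 22 tested mature genes, the log2 ratio and the log2 mean CPM had a Spearman rho of -0.39, a description across genes measured in the same 2 libraries.

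**Figure D3:**
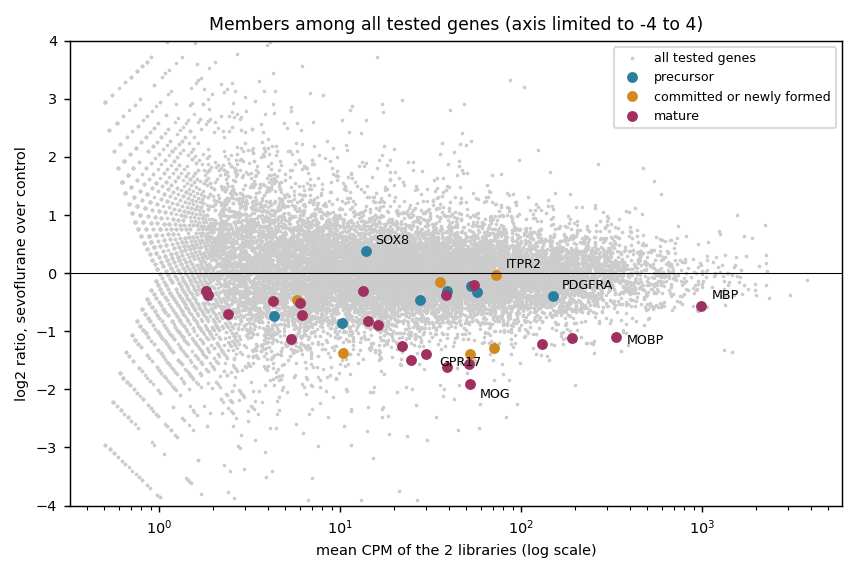
Log2 ratio against mean CPM (log axis) for all 18050 tested genes in grey and for the 36 tested members by stage, with the vertical axis limited to values from -4 to 4, so that more extreme genes are not shown. MOG is lowest of the members at -1.90, MBP has the highest mean level, and ITPR2 lies near 0 at -0.03.

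Within each library the mature genes held most of the member reads, as counted and without correction for gene length. Mature genes took 78.6% of member reads in CON (exact binomial 95% interval 78.3 to 78.9) and 74.5% in SEV (73.8 to 75.1). The precursor share was 12.04% and 16.03%, and the committed share 9.3% and 9.5%. For each precursor read there were 6.53 mature reads in CON and 4.65 in SEV, 1.41-fold fewer (log2 difference -0.49, exact interval -0.56 to -0.42). The precursor sum includes SOX10 (15.96% of it in CON and 16.11% in SEV), which serves myelin gene expression as well. This sum is thus not a measure of precursors alone. Committed reads per precursor read were 0.776 and 0.595, 1.31-fold fewer. In both libraries the order by reads was mature, precursor and then committed genes, and the mature share was smaller in SEV.

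One gene of each stage carried much of these sums. MBP held 45.1% of the mature reads in CON and 54.5% in SEV. PDGFRA, GPR17 and MBP were the most abundant gene of each stage by reads summed over both libraries. In SEV alone ITPR2 led the committed stage, so the committed sums lost GPR17 (-1.29) but kept ITPR2 (-0.03). Without PDGFRA, GPR17 and MBP, the mature share was 76.6% and 66.8%. Mature reads per precursor read were then 6.28 and 3.603, a log2 difference of -0.80. Mature reads per committed read differed by -0.11 with all genes and by -0.58 without these 3. The direction was lower in SEV either way.

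**Figure D4:**
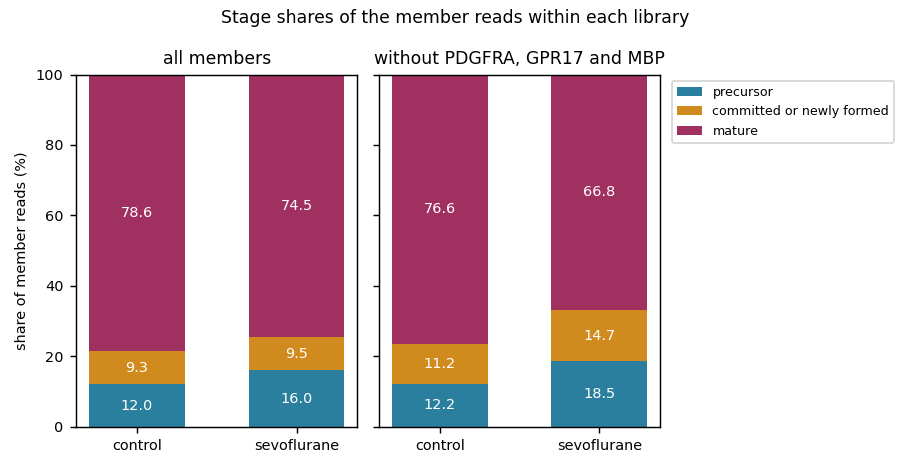
Share of the member reads (%) held by each stage in CON and SEV, for all members and without PDGFRA, GPR17 and MBP. The mature share is 78.6% and 74.5% with all members and 76.6% and 66.8% without these 3 genes.

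Further genes of the lineage, from lists drawn up with earlier results of these data known, are given for comparison, with no test between lists. Each count by the 2-fold rule, here and in the lists below, stands beside 5.47% of all genes lower and 7.56% higher. Of 23 further myelin and mature genes, 3 were at least 2-fold lower and 0 higher, with a median of -0.43. GPR37, a receptor of myelinating cells, had the lowest value, with 559 and 79 reads (-2.04, -2.42 to -1.72). TSPAN2, a tetraspanin of the myelin sheath, had 166 and 42 reads (-1.20), and ANLN, which encodes the actin-binding protein anillin, 479 and 124 (-1.18). LGI3 (0.35) and ABCA2 (0.17) lay above equal expression. The 6 further genes of newly formed cells had a median of -0.32 and none met the rule in either direction.

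The further precursor genes lay on both sides of equal expression. Of 12, 0 were at least 2-fold lower and 2 higher, with a median of 0.13, against -0.36 over the precursor members. MEGF11, a surface protein, had 164 and 239 reads (1.29), the transcription factor MYT1 562 and 666 (1.00) and the sialidase NEU4 236 and 253 (0.85). XYLT1 (-0.98), CA10 (-0.67) and SMOC1 (-0.64) were the lowest. Neurons and astrocytes use several genes of this list too.

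Signals that reach the lineage included a pair of receptors that met the rule, among 15 genes with a median of -0.14. ERBB3, a neuregulin receptor, was at 41.1 and 13.8 CPM (-1.56), and RXRG, a nuclear retinoid receptor, at 15.2 and 5.34 CPM (-1.49). ERBB2, the partner of ERBB3, lay the other way at 10.2 and 19.1 CPM (0.90). None of the 15 was at least 2-fold higher. Among 12 genes of sphingolipid and galactolipid metabolism, with a median of -0.40, DEGS2 alone met the rule (54 and 14 reads, -1.11), and CERS2 (-0.81) and ELOVL1 (-0.84), which build very long chain lipids, were next. The interval was below equal expression for 9 of these 12 and included it for 3.

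Markers of other cell types were examined in the same libraries. The 8 astrocyte markers, none at 0, summed to 6639 CPM in CON and 4616 in SEV, with a median log2 ratio of -0.48, and GFAP (-1.35) and AQP4 (-1.38) met the rule. SLC1A3 lay above equal expression (0.27), and the other 7 intervals were below it. The 10 neuron markers summed to 5573 and 4816 CPM (median -0.27), and NEUROD6 met the rule (-2.69). RBFOX3 lay the other way (0.83, 0.75 to 0.91), and 8 of the 10 intervals were below equal expression. The 7 microglia markers summed to 224 and 241 CPM, and C1QB, with 175 and 266 reads, was at least 2-fold higher (1.35). P2RY12 lay the other way (-0.52), and of the 7 intervals 1 was below equal expression, 3 were above it and 3 included it. The 6 endothelial markers summed to 162 and 168 CPM, and none met the rule. The 6 meninges and choroid plexus markers summed to 206.5 and 413 CPM. Of them, 3 were at least 2-fold higher, SLC13A4 (62 and 650 reads), TTR and COL1A1 (1307 and 1708 reads, 1.14). The interval lay above equal expression for 4 of the 6 and included it for 2. Of 6 Schwann cell markers, which would mark peripheral myelin, 3 reached 1 CPM in either library, FOXD3 was at 0 in both and NCMAP had 0 and 1 reads. The part of these cell types in the lineage values was not tested.

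**Figure D5:**
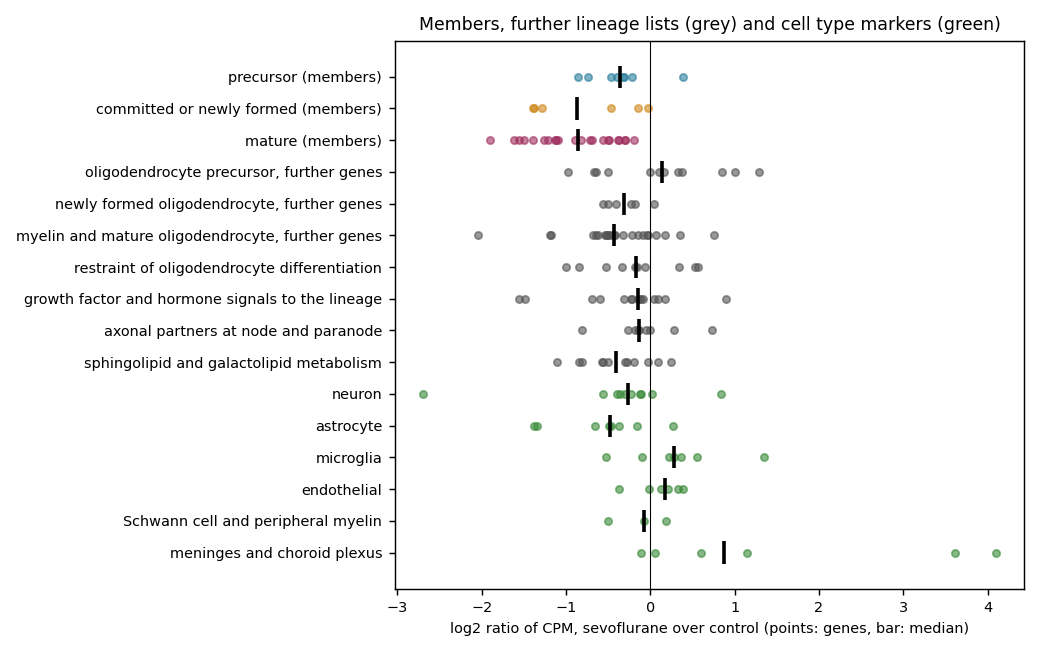
Log2 ratio of each tested gene (points) and list median (bars) for the 3 member stages, the 7 further lists of the lineage (grey) and the 6 cell type marker lists (green). The committed and mature members have the lowest medians, -0.88 and -0.86, and the meninges and choroid plexus markers the highest, 0.87.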

How the data were processed

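Per the labels, total RNA of macaque prefrontal cortex was sequenced on Illumina libraries, 1 per group. The values are raw counts of reads for each gene, deposited as whole numbers with no normalization. The submitters' processing notes name HISAT2 2.0.4, while the counting tool, strand setting, genome build and annotation are not given in the sources used here, so no coordinates or sequences are printed and overlapping or antisense genes may share reads. Effective library sizes came from edgeR 4.0.16 (R 4.3.3), with TMM factors of 0.991 (CON) and 1.01 (SEV) on the 18050 genes that reached 1 CPM in CON or SEV. Log2 ratios used a prior count of 2. Folds were computed without it. Intervals were exact, at 95% (scipy 1.17.1, numpy 2.4.6, pandas 2.3.3, Python 3.11.15; figures with matplotlib 3.10.9). The ratio of reads of 2 genes or stages had the exact conditional interval of the odds ratio. No quasi-likelihood fit was possible with 1 library in each group. A count of 3 reads, the floor, was 0.179 and 0.302 CPM. The procedure was tested on simulated counts that varied by counting error only, so that test does not cover differences between animals.

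The members and gene lists were chosen with earlier results of these data known. All members are named, and of each other list at most the 3 lowest and 3 highest genes whose interval leaves out equal expression. One gene of the further lists is not reported here and was left out of its list. FOXD3 and NCMAP were named as markers at or near 0, and TTR for ENPP2. Symbols came from the table, and CEMIP2 and SEPTIN4 had no row under those names. All 38 members matched RefSeq (assembly MMU8v2.0) by symbol. Each value was recomputed with size factors of DESeq2 1.42.0, with totals, with upper-quartile factors, with a prior of 0.5, with minimum levels of 1 read or 5 CPM, and with CON thinned to the depth of SEV. Also tried were thresholds of 1.5-fold and 4-fold, a 99.9% interval, and sums without the most abundant gene of each stage or replaced by medians.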

Additional observations from a re-analysis of the deposited data

Results flagged for a closer look

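The row named TF was listed at 0 in both libraries, but the table also holds LOC106992286, whose gene ID RefSeq now names TF. That row, outside the members by name, had 1537 reads in CON and 514 in SEV, or 91.5 and 51.8 CPM, and a log2 ratio of -0.82 (95% interval -0.97 to -0.68). It is given because reads lay above the floor in a row that the member list does not use, and it was found after the values were seen. With it in place of the TF row, the mature median was -0.83.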

How the results depend on the processing

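The stage medians kept their sign under all 7 alternatives of scaling, prior count, filter and depth. They also stayed within a range made by averaging the interval bounds of the middle genes of each stage. That range is not an interval of the median. In the committed stage it spans the gap between the intervals of GPR17 (-1.451 to -1.135) and TCF7L2 (-0.995 to 0.023), which do not overlap. The medians ranged from -0.38 to -0.34 for precursor, from -0.90 to -0.69 for committed and from -1.09 to -0.83 for mature genes. Of 248 values of single members recomputed in this way, all 248 stayed within their intervals. No scaling moved the median of all genes by more than 0.027.

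The member count of 13 lower genes became 0 at 4-fold, 18 at 1.5-fold and 12 with CON thinned to the depth of SEV. Over the 18050 genes tested, 4-fold gave 221 lower and 352 higher, and 1.5-fold gave 2141 and 2604. With CON thinned, 970 genes were lower and 1329 higher, among genes filtered anew. The filter of 5 CPM gave 474 and 606 in place of 988 and 1364, but it tests fewer genes, so these counts are not shares of the same set.

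Without PDGFRA, GPR17 and MBP, the log2 differences between the libraries were -0.80 for mature to precursor, -0.22 for committed to precursor and -0.58 for mature to committed reads, and the mature shares 76.6% and 66.8%. With medians of log2 CPM in place of sums, the first and the last were -0.998 and -0.63. With TF from LOC106992286, added after seeing the data, the mature shares were 79.2% and 75.1%. Reads per kilobase of coding length were not run, since coding lengths were not used here.

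No paired analysis was possible since CON and SEV are 1 library each, which also leaves no replicate to drop. The depth of SEV limits values near its floor, such as ST18.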

Other observations

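Axonal genes at the node of Ranvier and the paranode, where myelin meets the axon, lay on both sides of equal expression by less than 2-fold. Of 10 genes, 9 were tested (ANK3, named for its value, was listed at 0 in both libraries), none met the 2-fold rule, beside 5.47% of all genes lower and 7.56% higher, and the median log2 ratio was -0.14. The interval was below equal expression for 5 of the 9, above it for 2 and included it for 2. CNTN1, an adhesion molecule of the paranode, was the lowest at 30.1 CPM in CON and 17 CPM in SEV (-0.81). SPTBN4, a spectrin of the node, was the highest at 232 and 384 CPM (0.73), followed by the potassium channel gene KCNA2 (0.28). KCNA1 was at -0.26 and NFASC, which is also on the further list of newly formed cells, at -0.19.

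A list of 10 genes drawn up as restraining oligodendrocyte differentiation had a median of -0.17, and none met the 2-fold rule. The Notch effector HES5 was at 15.2 and 7.55 CPM (-0.998) and ID4 at 51.3 and 35.5 CPM (-0.53). ZNF488 (-0.84), also on the list, is known to favour differentiation. LINGO1, a surface protein that also occurs on neurons, was at 485.5 and 720 CPM (0.57), HES1 had 78 and 67 reads (0.53), and ID2 was at 64.9 and 81.8 CPM (0.33).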
